A study of Mus musculus with 2 samples.

Results

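The genes described here are 8 Toll-like receptors of the mouse (*Tlr1*, *Tlr2*, *Tlr3*, *Tlr4*, *Tlr6*, *Tlr7*, *Tlr9* and *Tlr13*), the co-receptor gene *Cd14* and the adaptor gene *Myd88*. They were chosen by name, and all 10 were found among the 32285 genes of a single-cell count table of sorted brain microglia. The mice were PSAPP animals with the genotype APPswe/PS1.delta.E9, a line with transgenes for mutant forms of human APP and presenilin that forms amyloid plaques in the brain. The promoters of the transgenes and the strain are not given in the sources used here. Mice were gavaged daily for 30 days, from 9 to 10 months of age, with vehicle (VEH) or with lemborexant (LEM) at 30 mg/kg/day, a sleep drug that blocks the orexin receptors. Cortex and hippocampus were dissociated, viable CD45loCD11b+ cells were taken by flow cytometry, and those from 5 animals per treatment, of both sexes, went together into 1 library made with the 10x Genomics 5′ kit. All groups carry the transgenes, so no comparison with animals free of amyloid was possible.

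The VEH library held 18374 cells and 116229678 counts of unique molecular identifiers (UMIs), and the LEM library 24392 cells and 160752298 counts, with medians of 5971 and 6034 counts per cell. Levels are given as CPM, a gene's counts over all counts of the same cells, scaled to 1e6. The microglial markers *P2ry12*, *Tmem119*, *Cx3cr1*, *Sall1* and *C1qa* summed to 17850 CPM in VEH and 18125 in LEM. Neutrophil markers summed to 0.103 and 0.224 CPM, monocyte markers to 8.60 and 10.0, lymphocyte markers to 14.0 and 11.4, and no other list of brain cells exceeded 31.2 CPM, apart from *Ttr* of the choroid plexus at 403 and 1227 CPM. Each treatment has 1 library and hence no replicate, so LEM was set against VEH without a test, and what differs between them may differ between any pools of mice. Ranges in parentheses are exact 95% intervals that cover counting error only. Cell names in the table hold no barcode, so barcodes shared between the libraries could not be counted.

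Toll-like receptors bind molecules shared by many microbes, and some of them also bind products of damaged cells and aggregated proteins. TLR2, paired with TLR1 or TLR6, and TLR4 sit at the cell surface and read lipoproteins and lipopolysaccharide, which CD14 hands to them. TLR3, TLR7, TLR9 and TLR13 sit in endosomes and read double-stranded RNA, single-stranded RNA, DNA and bacterial ribosomal RNA. All of these receptors but TLR3 signal through the adaptor MYD88 to NF-kB and to interferon regulatory factors, and TLR3 signals through the adaptor encoded by *Ticam1*. In the brain microglia are the main cells that carry them.

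Since the levels below were compared across microglia that differ in NF-kB targets and in interferon response, the promoters of the members were searched for letters that such factors bind. RefSeq entries on GRCm38.p6 were held for 7 of the 10 members, in 9 entries, and the 250 bases before each RefSeq start were read on both strands. The interferon response element (ISRE), searched as GAAANNGAA, was in 7.13% of all 32851 promoters and in those of *Tlr6* and *Myd88*. The core bound by the myeloid factor PU.1, GAGGAAGT, was in 2.44% of all promoters and in that of *Tlr1*. The NF-kB motif was in 7.25% and in those of *Tlr2* and *Tlr3*. Each match is shown within 30 bases read 5′ to 3′ along the gene's strand, with the match in capitals, which in *Tlr6* is the element on the opposite strand, 2 times with an overlap, and in *Tlr2* 2 overlapping matches. The motifs did not overlap each other.
Tlr1, chr5:64933563-64933592, minus strand, PU.1 core: attaaatgttgGAGGAAGTaggagcttgaa
Tlr2, chr3:83841762-83841791, minus strand, NF-kB: taggacacctGGGGAATTCCCacacggagc
Tlr3, chr8:45410572-45410601, minus strand, NF-kB: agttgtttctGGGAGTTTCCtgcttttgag
Tlr6, chr5:64959260-64959289, minus strand, ISRE: ctattcttTTCTCTTTCACTTTCtgtttga
Myd88, chr9:119340040-119340069, minus strand, ISRE: ggagcttctcgGAAAGCGAAagaaggaggg
The stretches of *Tlr3*, *Tlr6* and *Myd88* lie inside the spans these genes have in the GENCODE annotation below, where they start further upstream. Those of *Tlr1* and *Tlr2* meet the edge of theirs. A match is a stretch of letters and no measured site, and the levels of the same genes by cell state are given further on.

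In the GENCODE M21 annotation of GRCm38, *Tlr1* (chr5:64924679-64933563) and *Tlr6* (chr5:64952031-64960097) lie 18467 bases apart on the minus strand. They share 454 stretches of 50 bases, and with other genes counted in, 15.4% of the stretches in *Tlr1* transcripts and 12.3% of those in *Tlr6* transcripts are shared, so reads from there could be counted for either gene or for none, and the levels of both are uncertain by that. *Tlr7* (chrX:167304929-167330558, minus) and *Tlr13* (chrX:106143204-106160493, plus) are X-linked. *Tlr3* (chr8:45395665-45411080, minus) overlaps the antisense gene *Gm45542*, and *Myd88* (chr9:119335934-119341411, minus) overlaps *Slc22a14* on its own strand and *Acaa1a* on the other, so their counts carry that uncertainty too. *Tlr2* (chr3:83836272-83841767, minus), *Tlr4* (chr4:66827584-66930284, plus) and *Tlr9* (chr9:106222598-106226883, plus) overlap no other gene.

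Among the surface receptors, *Tlr2* gave 86.9 CPM in VEH (85.2–88.6) and 97.6 in LEM (96.0–99.1). *Tlr4*, the receptor of lipopolysaccharide, gave 78.3 CPM in VEH (76.7–79.9) and 76.4 in LEM (75.1–77.8). *Cd14* gave 265 CPM in VEH (262–268) and 286 in LEM (283–288). *Tlr2* and *Cd14* thus stood higher in the LEM pool beyond counting error and the *Tlr4* intervals overlapped. The partners of *Tlr2* were sparse, with 14.2 and 13.6 CPM for *Tlr1* and 14.9 and 17.3 CPM for *Tlr6*, and 92.0% of VEH and 91.9% of LEM cells had no count of *Tlr1*. A 5′ count marks 1 molecule whatever its length, but how well each gene's 5′ end is captured is not known, so these levels are not ranked against each other.

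Of the endosomal receptors, *Tlr7* gave 130.1 CPM in VEH and 125.0 in LEM, and *Tlr13* 115 and 131. *Tlr3* gave 48.6 and 47.8 CPM and *Tlr9* 38.7 and 43.5. The adaptor gene *Myd88* gave 51.8 CPM in VEH (50.5–53.1) and 50.5 in LEM (49.5–51.7). *Tlr9* and *Tlr13* were thus higher in LEM, *Tlr7* was lower by a small margin beyond counting error, and *Tlr3* and *Myd88* had overlapping intervals. In most cells a member was seen as 0 or 1 count. *Tlr7* was at 0 in 50.9% of VEH cells and at 3 or more counts in 7.98%, and *Cd14* was at 0 in 33.6% and at 3 or more in 23.9%, with up to 35 counts in a VEH cell and 60 in a LEM cell.

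**Figure D1:**
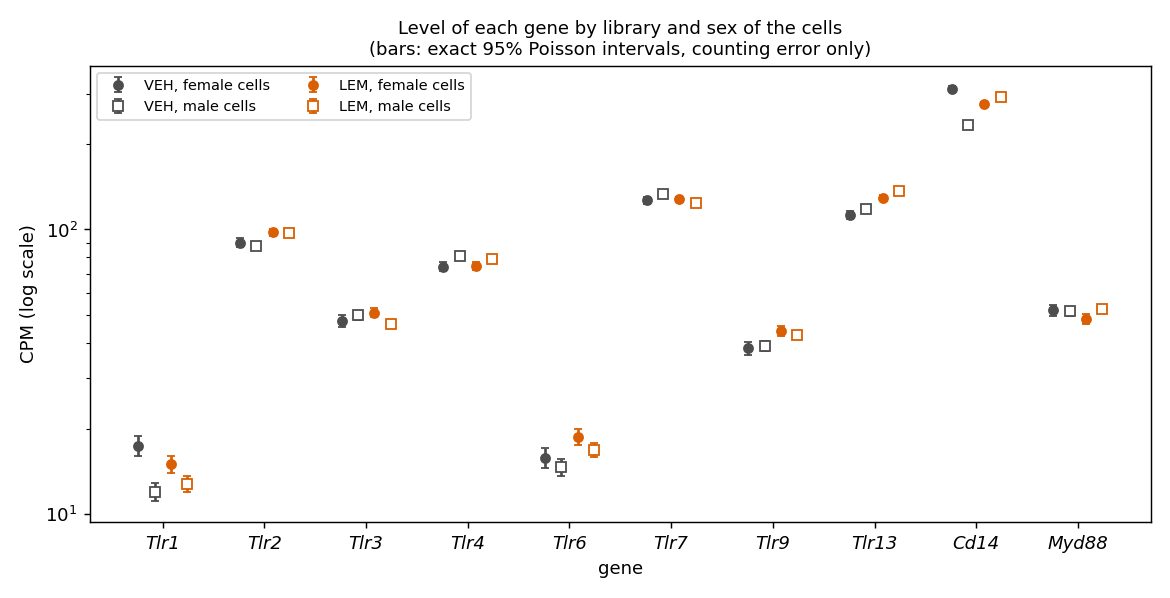
CPM of each gene on a log scale in female cells (filled circles) and male cells (open squares) of the VEH library (grey) and the LEM library (orange), with exact 95% Poisson intervals for counting error. *Cd14* stood at 312 CPM in VEH female cells and at 233 CPM in VEH male cells, a wider gap than for its neighbours in the plot, and the 4 points of *Tlr7* lay between 124 and 133 CPM.

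Shares of cells with a count depend on depth and on free RNA, so each cell with at least 2000 counts was thinned to 2000. Shallower cells, 1305 in VEH and 1215 in LEM, were left out of all thinned values. Droplets of the choroid plexus (*Ttr* of at least 100 counts, 49 in VEH and 143 in LEM) served as the comparison. In homeostatic cells thinned in this way *Cd14* was seen in 37.0% of VEH and 39.9% of LEM cells, against 23.4% and 17.6% of choroid plexus droplets. *Tlr7* was seen in 23.3% and 22.4% of homeostatic cells against 4.26% and 9.56% of droplets, and *Tlr13* in 20.0% and 22.7% against 10.6% and 13.2%. *Tlr2* was in 14.3% and 15.7% against 8.51% and 15.4%. *Tlr9* (8.83% against 8.82%) and *Tlr6* (3.70% against 3.68%) also had like shares in LEM, where 136 droplets were left after thinning, and in VEH they were in 7.72% against 0% and in 2.88% against 2.13%. By CPM the droplets of LEM were below homeostatic cells for *Tlr2*, at 62.6 against 89.0 and a log2 ratio of −0.51 (−0.84 to −0.19), and for *Tlr9*, at 23.5 against 46.1 and −0.97 (−1.54 to −0.46). For *Tlr6* in LEM this ratio was −0.69 (−1.57 to 0.06), and for *Tlr2* in VEH it was 0.05 (−0.43 to 0.50). The droplets are no clean background, since microglial markers summed in them to 11425 and 9313 CPM, against 18758 and 19096 CPM in homeostatic cells. Unthinned medians were 9338 and 8161 counts in the droplets and 5642 and 5710 in homeostatic cells. Without thinning *Cd14* was seen in 66.4% of all VEH and 70.2% of all LEM cells, and *Tlr7* in 49.1% and 49.5%.

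None of the 10 members differed between LEM and VEH by a log2 ratio of CPM of 0.25 or more in either direction. Among 11910 genes with counts in at least 1% of cells, 6.19% were higher by that much and 4.37% were lower, so 0 of 10 was close to what these shares would give a list of this size. The ratios ran from −0.06 for *Tlr7* to 0.21 for *Tlr6*, with 5 members above 0 and 5 below. The median of the members was 0.04, beside 0.01 over all genes tested. *Tlr6* (0.12 to 0.30), *Tlr13* at 0.19 (0.16 to 0.22), *Tlr9* at 0.17 (0.11 to 0.22) and *Tlr2* at 0.17 (0.13 to 0.20) were higher in LEM in female cells and in male cells alike. In LEM the thinned shares of *Tlr2*, *Tlr6* and *Tlr9* in homeostatic cells were like those in droplets, while by CPM *Tlr2* and *Tlr9* were higher in homeostatic cells. Genes of the dissociation response such as *Fos* and *Jun* were lower in the LEM pool, at 12695 CPM against 14156 in homeostatic cells, and their part in these small ratios was not tested.

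Cells were parted by sex from *Xist* and Y-linked counts, which gave 5686 female and 9025 male cells in VEH and 8409 and 11223 in LEM. Left out of the values by sex were 981 and 1764 cells with both kinds of counts and 2682 and 2996 with neither. A call can rest on 1 count, so it depends on depth and on free RNA. Within a library the sexes are separate animals that had the same treatment and preparation. Their ratio gives the size of differences that no drug separates, and it holds effects of sex as well. How many of the 5 animals were of each sex is not given. *Tlr7* and *Tlr13* lie on the X chromosome, and TLR7 is known to be made from both X chromosomes in some immune cells. The log2 ratio of female over male cells was −0.07 (−0.12 to −0.02) for *Tlr7* in VEH and 0.04 (−0.01 to 0.08) in LEM. For *Tlr13* it was −0.07 (−0.12 to −0.01) in VEH and −0.08 (−0.12 to −0.03) in LEM. Neither X-linked receptor stood higher in female cells by more than 0.08 at the upper end of these intervals. *Tlr1* was higher in female cells of both libraries, by 0.54 (0.38 to 0.69) in VEH and 0.23 (0.09 to 0.37) in LEM. No member passed 0.25 with the same sign in both libraries, where 2.32% of genes did so upwards and 1.40% downwards.

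*Cd14*, which lies on chromosome 18 (start 36725067, end 36726798, minus strand) and overlaps no other gene, was the member whose ratio of LEM over VEH differed most between female and male cells. Its level was 312 CPM in female and 233 CPM in male cells of VEH, and 275 and 293 CPM in those of LEM. The order of the sexes was thus reversed between the libraries, at a log2 ratio of female over male of 0.42 (0.39 to 0.46) in VEH and −0.09 (−0.12 to −0.06) in LEM. Put the other way, LEM stood below VEH in female cells by a log2 ratio of −0.18 (−0.22 to −0.15) and above it in male cells by 0.33 (0.30 to 0.36), and the pooled 0.11 is a mixture of these. Of 7521 genes detected in at least 10% of cells, 2.91% differed between the sexes in their LEM over VEH ratio by 0.5 or more, and *Cd14* was the 1 member of 9 tested that did. *Ly96*, which encodes the co-receptor MD-2 of TLR4 and was looked at after its values were seen, had a like pattern of smaller size, with LEM over VEH at −0.17 (−0.26 to −0.08) for female and 0.30 (0.22 to 0.38) for male cells. Other pathway genes went the other way, such as the chaperone gene *Hsp90b1* at 0.27 for female and −0.04 for male cells. The target gene *Tnf* was at 0.48 and −0.53. The pattern of *Cd14* was present in homeostatic cells (−0.23 in female and 0.38 in male cells), in other microglia (−0.21 and 0.63) and in chemokine-high cells (−0.11 and 0.23), all with intervals that left out 0. In DAM the signs were turned, at 0.14 (−0.01 to 0.28) and −0.12 (−0.25 to 0.01), with both intervals including 0. Dissociation genes were lower in LEM in both sexes, at 13448 against 11884 CPM in female and 13758 against 12297 CPM in male cells, and their part in the *Cd14* values was not tested.

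**Figure D2:**
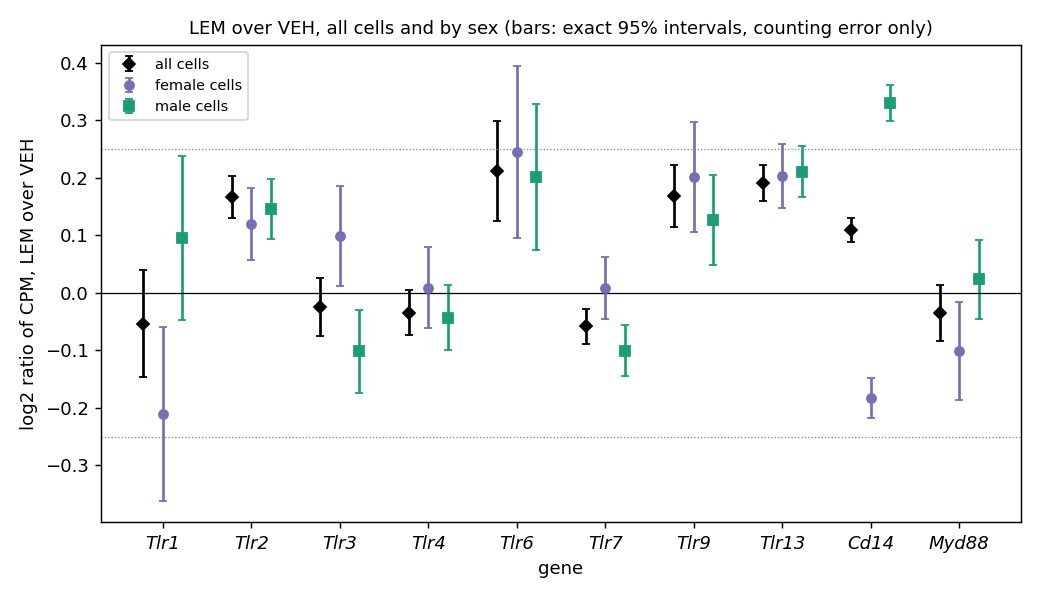
Log2 ratio of CPM, LEM over VEH, for each gene in all cells (black diamonds), female cells (violet circles) and male cells (green squares), with exact 95% intervals for counting error and dotted lines at 0.25 and −0.25. *Cd14* was at −0.18 in female and 0.33 in male cells, while *Tlr13* was at 0.20 and 0.21.

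Cell states were gated on counts of markers that include no member. A cell with at least 3 of the markers *Cst7*, *Lpl*, *Spp1*, *Itgax* and *Gpnmb* was called disease-associated microglia (DAM), with 449 cells in VEH and 573 in LEM. Cells with at least 3 interferon-induced markers such as *Ifit3* and *Isg15* were called interferon-responsive (340 and 616 cells), and those with at least 3 cell-cycle markers such as *Mki67* proliferating (144 and 214). Cells with at least 10 counts of *Ccl3* and *Ccl4* were called chemokine-high (2477 and 3372), and those with *P2ry12*, *Tmem119* and *Cx3cr1* and no DAM marker homeostatic (12463 and 15422). The gates read unthinned counts. Deep cells thus meet a gate of at least 3 markers more readily, and shallow cells more readily hold no DAM marker. Differences in depth between the states are therefore tied to the gates. Cells of a library share their source, so states were compared within each library and without a test, and the value of each library is given.

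DAM, the plaque-bound state with genes of lipid handling and phagocytosis, held more *Tlr2* and *Tlr1* by CPM than homeostatic cells, and less of *Tlr3*, *Tlr4*, *Tlr9*, *Tlr13* and *Myd88*. No member reached a log2 ratio of 1 in both libraries, where 3.01% of genes were higher and 4.48% lower by that much. At 0.5 in both libraries 2 of 10 members were higher and 5 lower, where 7.10% of genes were higher and 22.5% lower. The median of the members was −0.54 in VEH and −0.59 in LEM, beside −0.31 and −0.32 over all genes tested.

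*Tlr2* went from 80.5 CPM in homeostatic cells to 140.1 in DAM of VEH and from 89.0 to 126 in LEM, a log2 ratio of 0.80 (0.69 to 0.91) and 0.51 (0.40 to 0.61). *Tlr1* went from 12.7 to 20.2 CPM in VEH and from 12.3 to 18.0 in LEM, on 102 and 122 counts in DAM. *Cd14* went from 253 to 378 CPM in VEH and from 276 to 359 in LEM, which are ratios of 0.58 and 0.38. These 3 surface genes were the members higher in DAM in both libraries. *Tlr4*, a surface receptor too, went the other way, from 83.1 to 43.0 CPM in VEH and from 80.8 to 46.8 in LEM, a ratio of −0.95 (−1.15 to −0.76) and −0.79 (−0.95 to −0.62).

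The endosomal receptors were lower in DAM by CPM. *Tlr3* went from 51.2 to 26.9 CPM in VEH and from 50.7 to 22.2 in LEM, a ratio of −0.93 and −1.19. *Tlr9* was lower by ratios of −0.76 and −0.66, *Tlr13* by −0.60 and −0.72, and *Tlr7* by −0.48 and −0.53, just outside the threshold in VEH. *Myd88*, the shared adaptor, went from 55.4 to 26.9 CPM and from 54.7 to 29.5, a ratio of −1.04 (−1.30 to −0.79) and −0.89 (−1.10 to −0.69). *Tlr6* was at −0.34 and −0.53.

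The scale matters here, since DAM cells held a median of 11255 counts in VEH and 11737 in LEM against 5642 and 5710 in homeostatic cells. In mean counts per cell *Tlr2* was higher in DAM by log2 ratios of 1.75 and 1.48, *Tlr1* by 1.63 and 1.53 and *Cd14* by 1.53 and 1.36, while *Tlr4* was at 0.00 and 0.19, *Tlr3* at 0.03 and −0.22 and *Myd88* at −0.09 and 0.09. *Tlr7* (0.48 and 0.45), *Tlr13* (0.35 and 0.26) and *Tlr9* (0.20 and 0.32) were above 0 per cell. This scale adds the same amount to the ratio of every gene, 0.95 in VEH and 0.98 in LEM, since DAM cells held more counts, so it moves all genes alike and does not set the members apart. The median over all genes tested moved with it, from −0.31 to 0.65 in VEH and from −0.32 to 0.66 in LEM. When DAM and homeostatic cells in the same range of counts per cell (8555 to 14399 in VEH) were set against each other, the CPM ratios kept the direction of those of all cells, with *Tlr2* at 0.84 and 0.58, *Cd14* at 0.76 and 0.55, *Tlr3* at −0.96 and −1.43 and *Myd88* at −0.998 and −0.93. The members past 0.5 in both libraries were not quite those of all cells. *Cd14* joined *Tlr2* upwards, and *Tlr1* did not pass in LEM (0.81 and 0.48). *Tlr7*, at −0.52 (−0.72 to −0.32) and −0.58 (−0.76 to −0.40), joined *Tlr3*, *Tlr4*, *Tlr9*, *Tlr13* and *Myd88* downwards. These 2 and 6 of 10 members stand beside 6.98% of genes higher and 20.9% lower by 0.5 at matched depth. Dissociation genes were also lower in DAM, at 8360 and 7198 CPM against 14156 and 12695, and their part in the lower members was not tested.

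**Figure D3:**
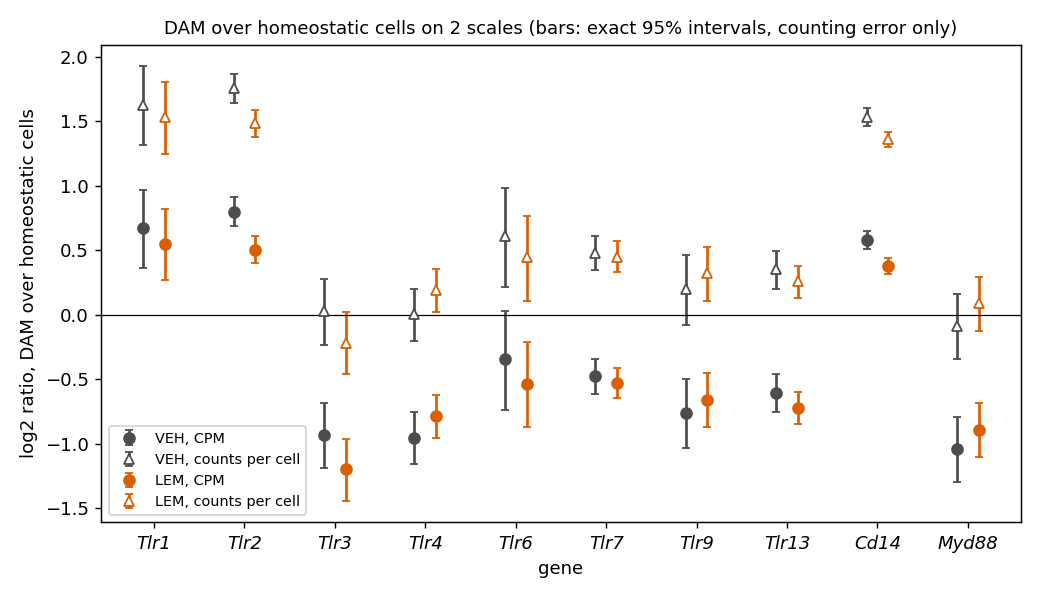
Log2 ratio of DAM over homeostatic cells for each gene in VEH (grey) and LEM (orange), as CPM (filled circles) and as mean counts per cell (open triangles), with exact 95% intervals for counting error. *Tlr2*, *Tlr1* and *Cd14* were above 0 on both scales, and the other members were below 0 by CPM. The triangles lie above the circles by 0.95 in VEH and 0.98 in LEM for every gene.

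In interferon-responsive cells the member with the widest ratio was *Tlr3*. It was at 109 CPM in VEH and 79.7 in LEM, against 51.2 and 50.7 in homeostatic cells, a log2 ratio of 1.10 (0.92 to 1.27) and 0.65 (0.51 to 0.80). In cells of matched depth the ratios were 1.21 and 0.79, with the same direction. No member was at 1 or more by CPM in both libraries, where 2.07% of genes were higher and 0.286% lower, and at 0.5 *Tlr3* was the 1 member higher, where 4.09% of genes were. *Myd88* was at 62.6 and 50.6 CPM against 55.4 and 54.7, ratios of 0.18 (−0.05 to 0.40) and −0.11 (−0.30 to 0.06). *Tlr6* was at 0.08 and 0.14. With depth matched, *Myd88* was at 0.37 (0.05 to 0.68) in VEH and −0.09 (−0.36 to 0.17) in LEM. *Tlr6* was then at −0.78 (−1.79 to 0.07) in VEH, on 11 counts, and at 0.25 (−0.21 to 0.68) in LEM. The windows of *Myd88* and *Tlr6* searched above held ISRE letters and that of *Tlr3* held none. Whether these letters bear on the levels was not tested. *Tlr1* was at 0.70 (0.29 to 1.09) and 0.31 (−0.03 to 0.64), and *Tlr2* at 0.41 (0.24 to 0.58) and 0.39 (0.27 to 0.51). At matched depth *Tlr2* was at 0.22 (−0.06 to 0.49) and 0.20 (0.00 to 0.39). *Tlr7* was at 0.29 and 0.13, and *Cd14* at −0.02 in each library. Thinned to 2000 counts, *Tlr3* was seen in 17.7% and 16.6% of interferon-responsive cells, 9.62% and 9.48% of homeostatic cells and 6.38% and 3.68% of choroid plexus droplets. Female cells made up 29.1% of the interferon-responsive cells of VEH and 51.6% of those of LEM.

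Proliferating cells held less *Tlr7*, *Tlr9*, *Cd14* and *Myd88* by CPM than homeostatic cells. *Cd14* was at 173 CPM in VEH and 133 in LEM against 253 and 276 in homeostatic cells, a log2 ratio of −0.55 (−0.73 to −0.37) and −1.05 (−1.22 to −0.89). *Tlr7* was at 74.2 and 65.7 CPM against 136 and 128, *Tlr9* at 24.3 and 24.0 against 40.2 and 46.1, and *Myd88* at 22.9 and 28.4 against 55.4 and 54.7. The 4 members passed 0.5 downwards in both libraries, where 13.2% of genes did. None passed 1 in both, where 9.63% of genes were higher and 3.76% lower. Median counts were 9932 and 9998 here, and in mean counts per cell the ratio of every gene was higher by 0.83 in VEH and 0.81 in LEM than by CPM. Against homeostatic cells of matched depth the 4 members were lower in both libraries, at −0.57 and −1.01 for *Cd14*, −0.67 and −1.03 for *Tlr7*, −0.70 and −0.99 for *Tlr9* and −1.15 and −0.99 for *Myd88*, with intervals that left out 0, and 12.3% of genes were lower by 0.5 in this way. Dissociation genes were lower in proliferating cells too, at 7783 and 7104 CPM against 14156 and 12695, and their part in the lower members was not tested. *Tlr2* was at 91.1 and 124 CPM, ratios of 0.18 and 0.48. *Tlr1* was at 22.3 and 17.3 CPM on 33 and 39 counts, ratios of 0.81 (0.27 to 1.31) and 0.49 (−0.01 to 0.95).

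In chemokine-high cells the members stayed within 0.42 of homeostatic cells, and none reached 1, where 0.63% of genes were higher and 0.0084% lower. *Tlr1* was at 0.40 and 0.42, *Tlr2* at 0.26 and 0.34 and *Cd14* at 0.28 and 0.21, the same 3 genes that were higher in DAM. By CPM *Tlr1* and *Tlr2* were above 0 in interferon-responsive and proliferating cells of both libraries too. *Tlr3* was at −0.35 and −0.24 in chemokine-high cells. Cells gated by at least 3 markers of border-associated macrophages (BAM-like) such as *Mrc1* and *Pf4* were 25 in VEH and 68 in LEM. Microglial markers summed in them to 14868 and 14152 CPM, against 18758 and 19096 CPM in homeostatic cells. *Cd14* in BAM-like cells was at 594 (495–707) and 590 (530–656) CPM, above its level in homeostatic cells, DAM and the other states described here. *Tlr8*, a receptor of single-stranded RNA outside the list, was at 23.6 and 41.3 CPM there on 5 and 24 counts, against 0.193 and 0.249 CPM in homeostatic cells on 14 and 23 counts. *Tlr4* in BAM-like cells, at 75.4 and 82.6 CPM, had an interval that included the homeostatic level.

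**Figure D4:**
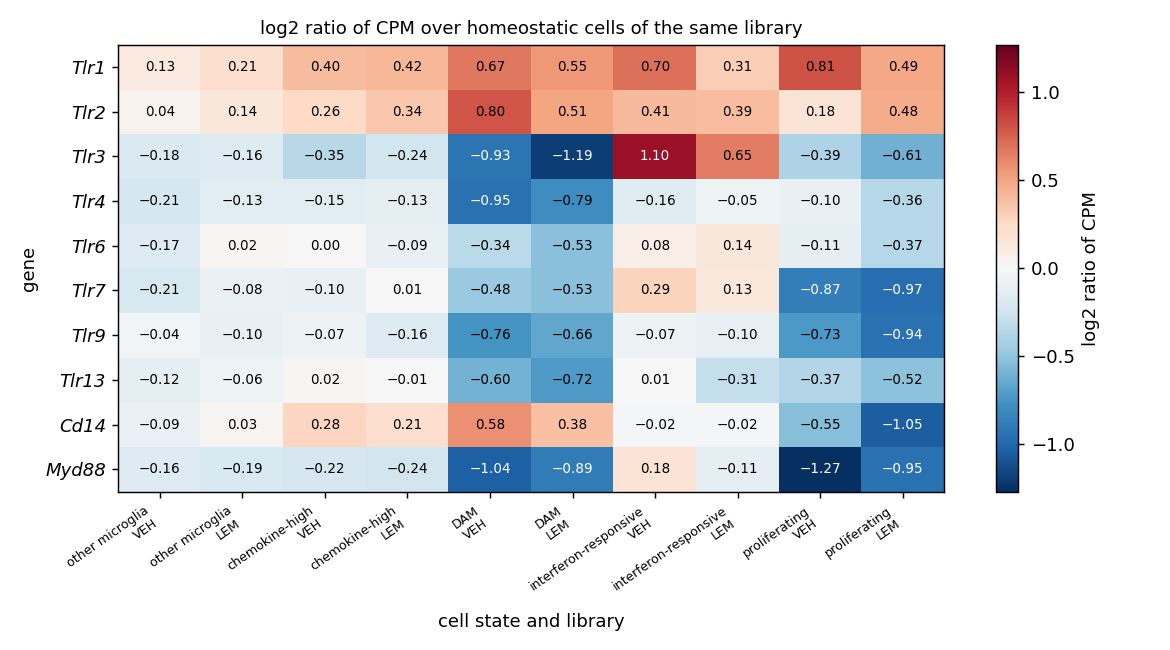
Log2 ratio of CPM over homeostatic cells of the same library, for each gene (rows) in each gated state and library (columns), with red for higher, blue for lower and the value written in each cell. *Tlr3* in interferon-responsive cells (1.10 and 0.65) and *Tlr2* in DAM (0.80 and 0.51) stand in red, and *Myd88* in DAM (−1.04 and −0.89) and in proliferating cells (−1.27 and −0.95) in blue.

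Within homeostatic cells the ratios of LEM over VEH were close to those of all cells, with *Tlr6* at 0.21, *Tlr13* at 0.21 (0.17 to 0.25), *Tlr9* at 0.20 (0.13 to 0.27), *Tlr2* at 0.15 (0.10 to 0.19) and *Cd14* at 0.13 (0.10 to 0.15), and with *Tlr7* lower at −0.08 (−0.12 to −0.04). *Tlr2* was also higher in LEM in other microglia (0.24), chemokine-high cells (0.23) and proliferating cells (0.44), and lower in DAM at −0.15 (−0.29 to −0.00). In other microglia the female cells gave 0.01 (−0.16 to 0.18) and the male cells 0.33 (0.18 to 0.48). For chemokine-high cells these were 0.18 and 0.20, with intervals that left out 0. For proliferating cells they were 0.45 and 0.42, with intervals that included 0. In DAM the male cells gave −0.31 (−0.52 to −0.10) and the female cells 0.11 (−0.14 to 0.37). *Tlr13* was higher in other microglia (0.27) and chemokine-high cells (0.18) and had intervals that included 0 in DAM and interferon-responsive cells. In interferon-responsive cells *Tlr3* was lower in LEM, at −0.46 (−0.67 to −0.24), as were *Tlr7* at −0.24 (−0.41 to −0.07) and *Myd88* at −0.31 (−0.59 to −0.02). There 3 of 10 members were lower by 0.25 (*Tlr1*, *Tlr3* and *Myd88*), where 16.1% of genes were. The ratio of *Tlr1* was −0.44 (−0.95 to 0.08), on 56 and 81 counts. Higher by 0.25 was 1 member, *Tlr6* at 0.27 (−0.25 to 0.81), where 16.8% of genes were. For *Tlr3* the female cells alone gave −0.75 (−1.16 to −0.33) and the male cells alone −0.29 (−0.61 to 0.03). For *Tlr7* these were −0.40 (−0.73 to −0.05) and −0.05 (−0.29 to 0.20), and for *Myd88* −0.54 (−1.09 to 0.03) and −0.16 (−0.60 to 0.28). *Cd14* was lower in LEM in proliferating cells, at −0.38 (−0.63 to −0.14). Both sexes had the same sign there, at −0.59 in female and −0.50 in male cells. The sign was thus opposite to that of homeostatic cells in male cells alone. Of the 10 members 3 were lower by 0.25 in proliferating cells (*Tlr1*, *Tlr4* and *Cd14*), where 19.9% of genes were. Higher by 0.25 were 2 members (*Tlr2* and *Myd88*), where 20.6% of genes were. The share of DAM was 2.44% in VEH and 2.35% in LEM.

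Partner receptors were seen in the same cells about as often as their separate shares give. In thinned homeostatic cells *Tlr2* and *Tlr1* were together in 35 VEH and 59 LEM cells, against 40.4 and 53.8 expected from their shares, and *Tlr2* and *Tlr6* in 49 and 86 against 47.7 and 85.7. *Cd14* and *Tlr4* were together at 0.98 and 0.97 times the expected number, *Tlr2* and *Cd14* at 1.02 and 1.03 times, and *Tlr7* and *Tlr9* at 0.93 and 1.04 times. All of these intervals included 1, and at this depth a moderate excess for *Tlr1* or *Tlr6* was not detectable. A thinned cell showed on average 0.94 of the 8 receptors in VEH and 0.99 in LEM, with none in 36.4% and 34.9% of cells and at least 4 in 0.814% and 1.06%. DAM showed 0.77 and 0.75 receptors per thinned cell and BAM-like cells 1.18 and 1.15, with choroid plexus droplets at 0.45 and 0.60.

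Of the other 4 mouse Toll-like receptors, *Tlr5* and *Tlr12* were counted at member-like levels. *Tlr5*, the flagellin receptor, was at 14.2 CPM in VEH and 14.9 in LEM, and in DAM at 3.76 and 3.69 CPM against 16.1 and 17.2 in homeostatic cells, a log2 ratio of −2.10 and −2.22 on 19 and 25 counts. *Tlr12* was at 48.8 and 44.6 CPM and, unlike the endosomal members, higher in DAM, at 0.63 and 0.51. *Tlr8* had 31 and 70 counts in all cells and *Tlr11* 30 and 36.

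Most of the remaining pathway genes moved little between the libraries, and a few target genes moved far. Medians of LEM over VEH were 0.02 for 9 genes of co-receptors and chaperones such as *Ly96* and *Unc93b1*, 0.01 for 17 adaptors and kinases, 0.00 for 13 NF-kB and IRF genes, −0.02 for 14 feedback inhibitors and −0.02 for 14 target genes, beside 0.01 over all genes. Among these genes, detected in at least 1% of cells, no co-receptor, adaptor or inhibitor passed 0.25, and of the target genes 3 passed upwards (*Ccl5*, *Il1b* and *Il6*) and 2 downwards (*Bcl2a1b* and *Ccl7*), of 14, beside 6.19% and 4.37% of all genes. The widest ratio was that of the chemokine gene *Ccl5*, which had 1.80 CPM in VEH against 10.5 in LEM. This is 2.54 (2.33 to 2.75) on the log2 scale, 3.67 for female and 1.22 for male cells. *Il6* was at 0.28, from 0.98 for female and −0.20 for male cells, *Il1b* at 0.27 and *Ccl7* at −0.35. *Bcl2a1b*, a survival gene with near-identical copies whose count is uncertain for that reason, was at 99.9 and 55.8 CPM, and was lower in LEM in female (−0.40) and male cells (−1.30). *Irf7*, induced by interferon, was at 12.1 and 16.7 CPM, and its ratio was 1.07 for female but −0.04 for male cells. In DAM 6 of 14 target genes were higher by 1 or more in both libraries, beside the 3.01% of all genes, but for *Ccl3*, *Ccl4* and *Il1b* the gates bear on this, since cells high in them were taken out of the homeostatic group. The other 3 were *Ccl5*, *Bcl2a1b* and *Cd83*, with *Cd83* from 122 to 369 CPM in VEH and 124 to 310 in LEM. The inhibitors *Socs3* (293 to 105 and 288 to 102 CPM) and *Dok3* (73.1 to 12.1 and 84.1 to 19.5 CPM) were lower there. *Ticam1*, the adaptor of TLR3, was at −0.23 and −0.08 in DAM, and *Unc93b1*, which carries endosomal receptors from the endoplasmic reticulum, at −0.52 and −0.50.

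Across 13 pools of state and library with at least 50 cells, choroid plexus left out, log2(CPM + 1) of the members was set against 7526 genes. The pools share libraries and depth differences, and the correlations are a description of which genes have like patterns. The genes most like each member were *Nab1*, *Srgn* and *Hspd1* for *Tlr1* (0.88 to 0.84), *Tmbim1*, *mt-Co3* and *Polr2f* for *Tlr2* (0.95 to 0.93), and *Capza2*, *Atp6v0a2* and *Il18* for *Tlr3* (0.96 to 0.95). They were *Afap1l1*, *Phospho2* and *Lfng* for *Tlr4* (0.98), *Fyttd1*, *Dcaf4* and *Marcks* for *Tlr6* (0.90 to 0.88), and *Idnk*, *Zc3h12a* and *Tbrg1* for *Tlr7* (0.96 to 0.95). For *Tlr9* they were *Zbtb38*, *Bach1* and *Fermt3* (0.98 to 0.97), for *Tlr13* *Hsd17b11*, *Cept1* and *Txnip* (0.96), for *Cd14* *Iah1*, *Mrpl23* and *Trf* (0.96 to 0.95) and for *Myd88* *Fez2*, *Abcc5* and *Zfp90* (0.97 to 0.96). Among the members, *Tlr9* and *Myd88* were most alike at 0.91, followed by *Tlr9* and *Tlr13* at 0.89 and *Tlr7* and *Myd88* at 0.87. *Tlr1* and *Tlr9* were the most opposed at −0.69.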

How the data were processed

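Alignment and UMI counting by the authors used Cell Ranger 8.0.0 and the mm10 build. Their methods name SoupX against free RNA and keep cells of at least 500 genes, at most 20000 counts and at most 2.5% mitochondrial counts. Their deposited table holds unnormalized UMI counts, all of them whole numbers. Whether the SoupX correction is in these counts could not be told, and no further one was made. 0 columns of cells were left unmatched to a library. CPM and log2 ratios were computed from summed counts, with exact Poisson intervals for levels and exact conditional intervals for ratios, and shares were thinned to 2000 counts. States were gated on marker counts, with 1 planned marker not used here, and Scrublet doublets (1805 VEH and 2402 LEM cells; scanpy 1.11.5) were kept and left out in an alternative. The genes and lists were chosen with earlier results of these data known. Named beside the members are the other Toll-like receptors, pathway genes detected in at least 10% of cells that passed 0.25 with 1 sign in both sexes, and the 3 genes most like each member; other genes named were chosen after their values were seen. Ratios and thinning were tested on simulated data. Scripts ran in Python 3.11.15 with pandas 2.3.3, scipy 1.17.1, matplotlib 3.10.9 and numpy 2.4.6.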

Additional observations from a re-analysis of the deposited data

Results flagged for a closer look

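For 4 values the ratio of LEM over VEH had opposite signs in 2 kinds of cells, with both counting intervals leaving out 0. With 1 library per treatment none of these differences was tested. The share of all genes that meet this rule is not given here, so whether 4 is many or few cannot be told. *Cd14* had a log2 ratio of −0.18 in cells called female, against 0.33 in those called male, a difference of −0.51. *Tlr3* had 0.10 (0.01 to 0.19) in female against −0.10 (−0.17 to −0.03) in male cells, a difference of 0.20. For *Tlr2* it was −0.15 in DAM and 0.15 in homeostatic cells, a difference of −0.29. The sexes differed within DAM, where male cells had −0.31 (−0.52 to −0.10) and female cells 0.11 (−0.14 to 0.37), the latter with the sign of female homeostatic cells (0.09). For *Cd14* it was −0.38 in proliferating and 0.13 in homeostatic cells, a difference of −0.51. The 0.13 is a mixture of −0.23 in female and 0.38 in male homeostatic cells, and proliferating cells had −0.59 and −0.50, so the opposite signs were those of male cells.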

How the results depend on the processing

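The ratios of LEM over VEH for *Tlr2*, *Tlr6*, *Tlr9* and *Tlr13* were above 0 under all 11 alternatives of scaling, cells and sex, between 0.12 and 0.18, 0.19 and 0.34, 0.13 and 0.20, and 0.17 and 0.21. For *Cd14* 10 were above 0 and 1, female cells alone, was below. Each of *Tlr1*, *Tlr3*, *Tlr4*, *Tlr7* and *Myd88* changed sign in 1 sex. The scaling alternatives moved the median of all genes by at most 0.02. Of 162 counts and medians recomputed, 138 stayed within 1.5 times or within counting error and 24 did not. Members are counted out of 10, with the share of all genes past the same threshold in parentheses. Members past 0.25 upwards were 1 with thinned cells (*Tlr6* at 0.34, 7.53%) and 1 in male cells (*Cd14*, 8.77%). In male cells the members' median was 0.11, and 7 of the 69 pathway genes tested were lower by 0.25 (5.79%). At 0.5 pathway genes were 1 higher and 1 lower. Over genes detected in at least 10% of cells, 2.29% were higher and 2.10% lower. In DAM the members lower by 1 were 2 with 1 marker more (7.29%), 1 when thinned (5.99%) and 1 in female cells (5.48%), 5 at a threshold of 0.5 (22.5%), and those higher were 2 at 0.5 (7.10%) and 3 per cell (17.9%). In proliferating cells the members lower were 1 without doublets (4.45%), 1 when thinned (6.05%), 1 in female (5.11%) and 1 in male cells (4.36%), 4 at 0.5 (13.2%), and 2 were higher per cell (31.2%). In interferon-responsive cells 1 was higher at 0.5 (4.09%) and 1 per cell (4.05%). Female over male gave 1 member higher within homeostatic cells (2.80%), and LEM over VEH within DAM gave 2 higher with 1 marker more (19.5%). Counts per cell add the same amount to every gene and say nothing of the members alone. Counts per cell and matched depth were alternatives chosen after seeing the data, and under matched depth no member passed 1 in both libraries. The causes were not tested. No paired analysis was possible because the result comes from no test, with 1 library per treatment. At 2000 counts per cell, the depth limits what can be seen of *Tlr1* and *Tlr6*, which were in under 4% of thinned cells.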
